A study of Mus musculus with 5 samples.

Results

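Among 55419 transcripts with ChIP-seq scores from mouse testis, 1869 transcripts (3.37%) had a TAF7L promoter score of at least 120, and these are described here. They were selected on the measured TAF7L values, so their TAF7L scores are a description and support nothing. They make up 11.7% of the 16039 transcripts with any TAF7L promoter score, and all 1869 also stood in the RNA table. By name and chromosome, 1738 of them belonged to 812 of the 21663 genes in the tables, and the other 131 had no gene name that could be placed. Transcripts share signal: the 1869 carried only 767 distinct combinations of chromosome, TAF7L score and Pol II score, and 89 of these combinations were shared by 2 genes. The score is the authors' own, with no definition in the headers, and 0 was read as no assigned signal.

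Chromatin of wild-type mouse testis, from 10 mice, was precipitated with an antibody to TAF7L, an antibody to RNA polymerase II (Pol II) or IgG, in 1 library each, and the scores come from the first pair. Messenger RNA was sequenced from testis of wild-type and Taf7l knockout (Taf7l-/Y) males, in 1 library for each genotype, each pooled from 6 extracts and holding 100 to 200 M reads (M, 1e+06) per the labels. All 5 libraries came from animals aged 3 months. The IgG library was given no score of its own, so no background level stands beside the TAF7L scores, and no depth is known for the ChIP libraries. No condition had a replicate, so every difference below is a difference between single libraries, described by size with no p-value. The standard deviations (SD) in the RNA table are the authors', what they were taken over is not stated, and they are no replicate error.

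TFIID is the general transcription factor that recognises core promoters and helps to place Pol II at the start of a gene. It consists of the TATA-binding protein TBP and a series of TBP-associated factors, the TAFs. TAF7L is an X-linked relative of the TFIID subunit TAF7 that is abundant in male germ cells, and it has been studied together with TBP-related factor TRF2 (Tbpl1) in spermatid development. In a whole testis, spermatogonia, meiotic spermatocytes and spermatids are mixed with Sertoli, Leydig and other somatic cells, and fewer cells of a type cannot be told apart from less RNA per cell.

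A short sequence next to the gene start was more frequent in the strong TAF7L promoters than in the other classes. The letters AAGATGGCG, searched on both strands (CGCCATCTT on the other) in the RefSeq promoter window of 250 bases before and 50 bases from the start, occurred in 105 of the 687 member genes in the promoter table, 15.3% (95% Wilson interval 12.8 to 18.2, which covers counting over genes only). Head-to-head partners can hold the same site, as Mrps27 and Ptcd2 do, and it then counted for both genes. The interval treats such partners as separate genes. The letters AAGATGGCG are those of the binding element of the transcription factor YY1, and also of a known initiator element of genes with short leaders, in which the ATG is the start codon. The sites of 8 members are shown because they hold the match right at the start, in genes of transcription, translation and mitochondria as well as in the gene with the highest score. Capitals mark the match. Coordinates are GRCm38.p6, from RefSeq, and the sequence is that of the gene's own strand.

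Taf5, chr19:47067752-47067781, plus strand: gctcagccgcAAGATGGCGgcgctggcgga
Tpgs1, chr10:79669433-79669462, plus strand: gcccccaacaAAGATGGCGgcagtggagaa
Nmt1, chr11:103028559-103028588, plus strand: ctcgcaacccAAGATGGCGgatgagagtga
Srp72, chr5:76974711-76974740, plus strand: cacctcctccAAGATGGCGagcggcggcag
Mrps27, chr13:99344790-99344819, plus strand: ggtgcgctccAAGATGGCGgctcccatggt
Cox10, chr11:64079432-64079461, minus strand: gcgggctagcAAGATGGCGgcgcccaggag
Gtf2b, chr3:142765259-142765288, plus strand: cggagccgcgAAGATGGCGtcgaccagccg
Taf4, chr2:179976630-179976659, minus strand: gcgaggaggaAAGATGGCGgcgggctcgga

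In 7 of these 8 genes the first base of the match lay 4 to 26 bases after the annotated start, and in Taf4 it lay 3 bases before it. The same pattern held over the 87 member genes with a match and a single annotated start. They held 95 matches, of which 72 were on the gene's own strand and 63 had their first base at or after the start, with a median distance of 14 bases after it. A site shared by head-to-head partners can enter for both genes, on the own strand of one and the opposite strand of the other. In genes with a TAF7L promoter score above 0 but under 120, with 168 matches, the median distance was 13 bases, so the position of the match did not set the strong promoters apart.

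The share of genes with a match grew with the TAF7L score. It was 0.591% of 10660 genes with no TAF7L promoter score and 4.02% of 5171 genes with a weaker score. Among the members it was 11.8% of genes with scores from 120 to 150, 16.0% from 150 to 200 and 26.5% (18.9 to 35.8) of the 102 genes with 200 or more. Of all 32851 single promoters in the RefSeq table, 1.40% held the letters. Counted per gene, as for the members, 2.28% of all 16518 genes of the tables with an annotated start did. The step was already visible just under the threshold, at 10.4% of genes with scores from 100 to 120.

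**Figure D1:**
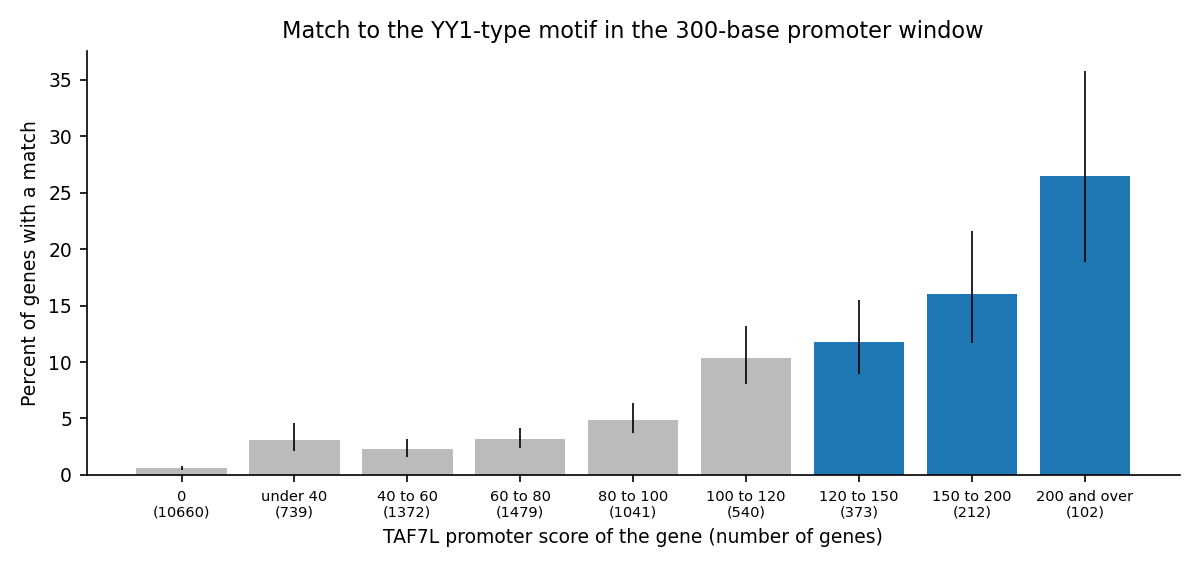
Percent of genes with a match to the YY1-type motif in the 300-base promoter window (vertical axis), by TAF7L promoter score of the gene (horizontal axis, number of genes in brackets); blue bars are the genes with 120 or more, and error bars are 95% Wilson intervals over genes. The share is 0.591% without a TAF7L score and 26.5% at scores of 200 or more.

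The difference was also present among genes with similar Pol II scores. Genes with a Pol II promoter score were divided into 4 equal bands of it. In the highest band, with scores from 559 to 3260, 76 of 556 members (13.7%) held the match, against 4.74% of weaker-score genes and 1.23% of genes with Pol II and no TAF7L score. In the band below, with Pol II scores from 350 to 558, the shares were 23.6%, 3.61% and 0.752%. Within the members, the 105 genes with a match had a median Pol II score of 713 and those without had 862. Their median log2 changes in the knockout library were 0.38 and 0.38.

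Other core promoter letters separated the strong from the weaker promoters less. TATAAA, the TATA box, was found in 9.32% of member genes, 6.65% of weaker-score genes, 23.6% of genes with neither score and 13.6% of all RefSeq promoters. GGGCGG, the GC box of SP1-type factors, was in 74.7% of members and 71.7% of weaker-score genes, against 35.7% of all RefSeq promoters, and CCAAT was in 44.3% and 43.1%, against 37.4%. Letters of the nuclear respiratory factor NRF1, GCGCATGCG, were in 8.44% of members and 5.49% of weaker-score genes, against 1.75% of all. CCGGAAG, the ETS site, went the other way, with 19.8% of members and 26.5% of weaker-score genes (8.86% of all). TGACGTCA, the full cAMP response element, was in 5.09% and 4.31% (1.79% of all). Median GC content was 62.3% in members and 62.0% in weaker-score genes, and the ratio of observed to expected CpG was 0.850 and 0.822. A match is a description of letters and not a bound site. All 7 motifs were searched on both strands, and members and the weaker-score genes had means of 1.23 and 1.25 windows per gene. The shares of all RefSeq promoters count single promoters and are lower for most motifs than shares per gene. Per gene, over all 16518 genes of the tables with a start, TATAAA was in 14.4%, GGGCGG in 51.9% and CCAAT in 42.4%. GCGCATGCG was in 2.74% of them, CCGGAAG in 13.4% and TGACGTCA in 2.68%.

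**Figure D2:**
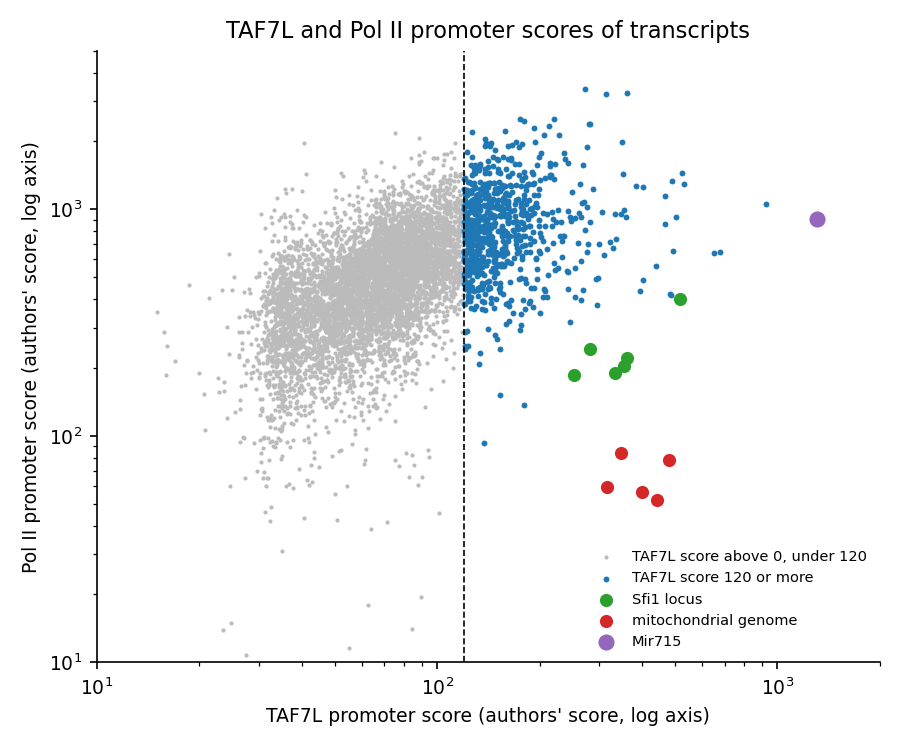
TAF7L promoter score (horizontal) against Pol II promoter score (vertical) of transcripts with both scores above 0, both on log axes; each point is 1 distinct pair of scores and the dashed line marks 120. The members' Pol II quartiles are 599 and 1080, while 5 mitochondrial score pairs, the Sfi1 locus and Mir715 stand to the right with a lower Pol II score than TAF7L score.

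TAF7L scores of the members ran from 120 to 1310, with a median of 147 and quartiles of 130 and 179. A score of at least 200 was reached by 299 transcripts. The threshold cut through a continuous distribution. Just inside it, 30, 69 and 45 transcripts had scores of 120, 121 and 122, with median Pol II scores of 656, 727 and 816. Just outside it, 74, 35 and 55 transcripts had 119, 118 and 117, with 700, 805 and 877. The gene with the highest RNA signal at each of these values was Vps4a (120), Tesk1 (121), Mns1 (122), BC051142 (119), Atp5b (118) and Snord104 (117).

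Some of the very highest TAF7L scores stood at unusual loci. Mir715, annotated at chromosome 17, 39981080 to 39981190 (mm9), had the highest score of all, 1310, with a Pol II score of 909 and RNA signals of 7328 (SD 1067) in wild type and 9256 (SD 1411) in the knockout. The mitochondrial genome, which Pol II does not transcribe, carried 7 member transcripts with TAF7L scores from 158 to 481 and Pol II scores from 0 to 84.2. At the Sfi1 locus on chromosome 11, 10 transcripts had TAF7L scores from 252 to 516 and Pol II scores from 185 to 403. These 18 transcripts belong to the set by its rule. Without them the median Pol II score of the members was 843 and no count of genes past 2-fold changed. In all, 44 transcripts from 26 score pairs had a TAF7L score above their Pol II score.

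Among the named genes, the highest TAF7L promoter scores belonged to genes of several general cell pathways. Taf5, which encodes a scaffold subunit of TFIID itself, had a TAF7L score of 929, a Pol II score of 1050 and RNA signals of 5.24 (SD 0.807) in wild type and 7.20 (SD 0.907) in the knockout. Mrps7, a mitochondrial ribosomal protein gene, and Gga3, a clathrin adaptor gene of the Golgi, start head to head and had equal scores of 676 for TAF7L and 646 for Pol II. Cops6, a subunit of the COP9 signalosome, had 652 and 641, with RNA signals of 53.3 (SD 3.45) and 65.2 (SD 4.52). None of these 4 genes had a wild-type signal near the top of the testis transcriptome.

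The next scores were lower and close together. Pcif1, the cap-specific adenosine methyltransferase that binds the Pol II tail, had 531, and Dcaf8, a substrate receptor of CUL4 ubiquitin ligases, had 526. Nsfl1c, a cofactor of the ATPase p97, had 493. Tpgs1, a subunit of tubulin polyglutamylase that the table lists as Gm16517, had 488. Kctd10 and Ube3b, again head to head, shared 484. Of these genes only Nsfl1c was past 2-fold, with an RNA signal of 26.2 (SD 3.49) in wild type and 55.6 (SD 5.83) in the knockout.

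The promoter of Taf5 is shown for its 120 bases before the start because it carries the highest score of a named gene. Capitals mark the only motif searched for that falls in this stretch, the GC box read on the opposite strand.

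Taf5, chr19:47067628-47067747 (GRCm38.p6), plus strand: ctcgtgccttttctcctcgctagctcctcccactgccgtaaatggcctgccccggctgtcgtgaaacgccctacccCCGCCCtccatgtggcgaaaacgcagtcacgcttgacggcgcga

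The members' promoters also carried Pol II. A Pol II promoter score above 0 was present for 1856 of the 1869 transcripts (99.3%), and its median was 840 (quartiles 599 and 1080). Weaker TAF7L transcripts were scored for Pol II as often, in 99.5% of 14170, but with a median of 474. Transcripts with Pol II and no TAF7L score had a median of 131, and the median over all transcripts was 62.7. TAF7L and Pol II come from different antibodies and libraries but from the same chromatin source, so how far open or GC-rich chromatin raises both scores was not tested. Within the 801 member genes compared below, the TAF7L score and the Pol II score had a Spearman rho of 0.14 as a description.

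Srsf7, a splicing factor gene, and Nabp1, a single-strand DNA-binding protein gene, were among the members with the highest Pol II scores, with 3260 and 3210. The score was 0 at Prmt5, Ctnnb1 and Sae1, although their RNA was measured. Prmt5, an arginine methyltransferase gene needed in germ cells, had a TAF7L score of 155 and RNA signals of 13.4 (SD 5.73) and 32.1 (SD 11.3), from a short transcript listed as Jbp1. A high Pol II promoter score did not always go with a high RNA level: Srsf7 had a wild-type signal of 4.44 and Nabp1 one of 11.6.

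Beside the promoter class, a proximal TAF7L score was present for 940 members (50.3%), against 38.5% of weaker-score and 16.4% of Pol II-only transcripts. A distal TAF7L score was present for 929 (49.7%), about as often as in weaker-score transcripts (49.4%). For Pol II the proximal class was scored in 71.2% of members and 67.0% of weaker-score transcripts. The proximal class differed more between strong and weaker promoters than the distal class did, in the same TAF7L library that chose the members. A proximal score can also equal the promoter score that chose the member, as in a transcript of G3bp2 with 153 in both classes. No conclusion is drawn from this difference.

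Strong TAF7L promoters were promoters of genes transcribed in testis, at moderate levels. Of the 812 member genes, 97.4% had a wild-type RNA signal of at least 1, a signal on the scale of the authors' table whose unit is not named. Those with a mean of at least 1 over both libraries, 801 genes (98.6%), were compared between genotypes, and the other 11 were not. The median wild-type signal of the 801 member genes was 13.5 (quartiles 5.01 and 39.1, range 0.643 to 2513), against 9.27 for weaker-score genes, 4.65 for genes with Pol II only, 3.12 for genes with neither score and 6.82 for all 12390 genes compared. For each gene the transcript with the highest mean was taken, and in 130 of the 812 genes this transcript was not itself a member.

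Within the members a higher TAF7L score did not go with more RNA, although over the whole table the median wild-type signal was higher in higher score ranges, from 4.07 at a score of 0 to 10.9 at 80 to 100. Across the 801 member genes, TAF7L score and wild-type signal had a Spearman rho of 0.06, and Pol II score and wild-type signal 0.19. Genes with scores of 200 or more had a median wild-type signal of 13.7, beside 13.2 for those with 120 to 150 and 11.95 for the genes from 100 to 120 outside the set. Just 76 member genes (9.49%) reached a wild-type signal of 100, against 7.04% of all genes compared.

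The most abundant members were a mixture of spermatid and general genes. Dbil5, a testis-specific acyl-CoA-binding protein gene of late spermatids, had a wild-type signal of 2513 (SD 54.8), and Meig1, needed for assembly of the sperm tail, had 1783 (SD 37.5). Morf4l1, a chromatin-binding subunit of histone acetyltransferase and deacetylase complexes, had 1342, and Gm5617 had 1272. The tubulin gene Tubb4b, listed as Tubb2c, had 1207 and the ribosomal protein gene Rps29 had 949. All 6 had TAF7L scores under 200, with 150, 142, 129, 191, 181 and 126.

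The knockout library was then set against the wild-type library. The targeted gene itself, which is not a member (TAF7L promoter score 39.2), had signals of 13.2 (SD 1.56) in wild type and 2.04 (SD 0.600) in the knockout. Member genes mostly stayed within 2-fold. On the scale log2((knockout + 1)/(wild type + 1)), which understates changes of low genes, their median change was 0.38 against 0.40 over all genes compared, and their 5th and 95th percentiles were -0.63 and 0.97 against -1.21 and 1.07. Higher by at least 2-fold in the knockout were 30 of 801 members, 3.75% (2.64 to 5.30), against 7.38% of all genes compared. At least 2-fold lower were 13 members, 1.62% (0.951 to 2.76), against 7.3% of all genes compared.

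The share past 2-fold differed between the promoter classes. Past 2-fold in either direction were 5.37% of members, 8.75% of weaker-score genes, 21.4% of Pol II-only genes and 24.8% of genes with neither score. For lower genes alone the shares were 1.62%, 3.33%, 11.4% and 14.9%. Along the TAF7L score itself the share past 2-fold was 22.4% at a score of 0, 12.6% under 40, 9.45% from 40 to 60, 6.44% from 80 to 100 and 5.31% from 100 to 120, outside the set. Inside it the share was 5.88% from 120 to 150, 3.98% from 150 to 200 and 6.40% at 200 or more, so nothing further was seen within the members.

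The same comparison within the highest range of Pol II scores reduced the difference. In the highest of 4 equal bands of Pol II scores over the genes compared (582 to 3380), 12 of 624 members were at least 2-fold lower, 1.92% (1.10 to 3.33), against 2.37% of weaker-score genes and 2.50% of all genes in that band. At least 2-fold higher were 3.04% of members there, against 4.70% of all. The members' share of lower genes was thus near that of all genes in the band, nearly all of which had a TAF7L score. The 77 genes of the band without one had 10.4% lower (5.36 to 19.2) and 16.9% higher.

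Lower genes were most frequent among abundant transcripts, and least so in the members. Among genes with a wild-type signal of 100 or more, 4 of 76 members were at least 2-fold lower, 5.26% (2.07 to 12.8), against 15.0% of 500 weaker-score genes, 64.3% of 235 Pol II-only genes and 28.7% of all 872. None of the 76 members was at least 2-fold higher, and 2.06% of all 872 were. From 20 to 100 the shares of lower genes were 2.33% of members, 6.73%, 32.1% and 14.7%, and from 5 to 20 they were 1.12%, 1.43%, 7.79% and 6.28%. From 1 to 5 no member of 190 was lower, against 1.41% of all genes, and 1.58% were higher, against 6.97%.

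**Figure D3:**
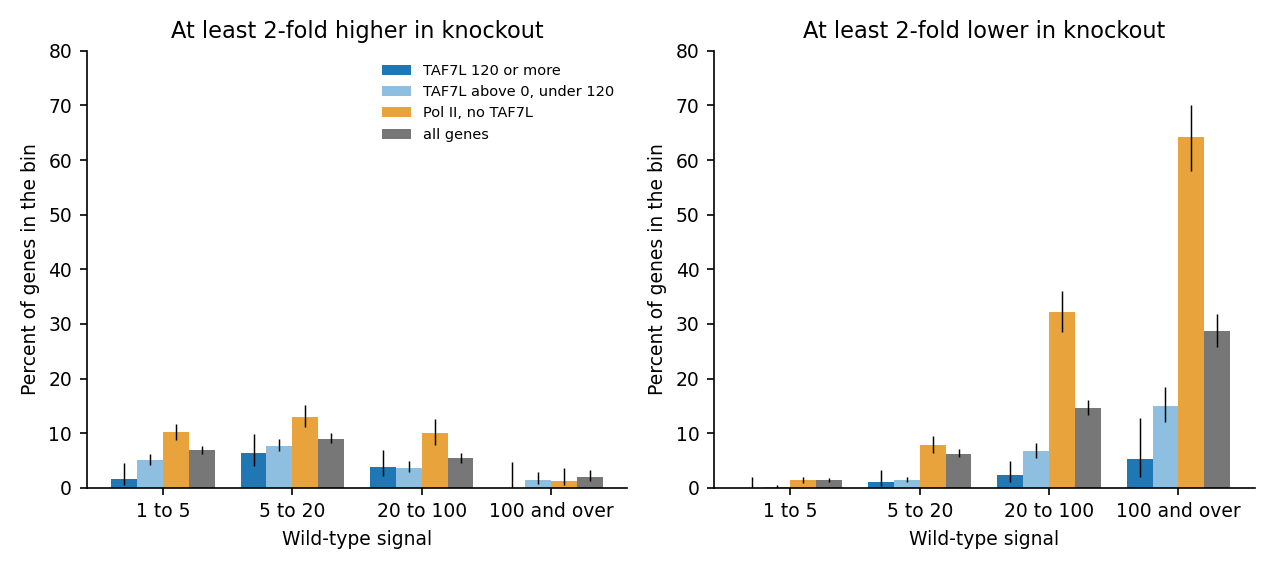
Percent of genes at least 2-fold higher (left) and lower (right) in the knockout library (vertical axes), by wild-type signal (horizontal axes) and promoter class (colours); error bars are 95% Wilson intervals over genes, which are not replicates. At a wild-type signal of 100 or more, 5.26% of members and 64.3% of Pol II-only genes are at least 2-fold lower. Their median Pol II scores differ there, at 946 and 188.

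Scaling changed the direction of the members as a group. When the knockout signals were multiplied so that the median change of all genes was 0 (a shift of 0.40), the members' median change was -0.047. Then 1 member (0.125%) was at least 2-fold higher, against 1.03% of all genes, and 51 (6.37%) were at least 2-fold lower, against 12.7%. As deposited, 637 of 801 members (79.5%) had a positive change, against 72.4% of all genes compared, and after rescaling 45.8% did, against 50%. Which scaling fits the RNA content of the tissue was not tested.

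Markers of cell types differed between both libraries. The summed signal of 6 spermatid markers was 64846 in wild type and 11597 in the knockout, with all 6 at least 2-fold lower. That of 9 Sertoli markers was 700 and 1464, with 6 at least 2-fold higher, that of 6 Leydig markers 1901 and 1533, with 2 higher, that of 4 peritubular markers 42.1 and 94.3, with 3 higher, and that of 5 macrophage markers 23.8 and 54.7, with 1 of the 4 compared higher. Sums of 7 spermatogonial and 5 spermatocyte markers were 43.5 and 99.4, and 58.9 and 111, with 2 of the 4 and 2 of the 5 compared higher. The 5 epididymal markers summed to 0.666 in wild type, where 1 was at 0, and to 165 in the knockout, with 4 of 4 compared higher. Of all these markers only Dazl and Sycp3 were members. The part of these cell types in the members' changes was not tested.

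**Figure D4:**
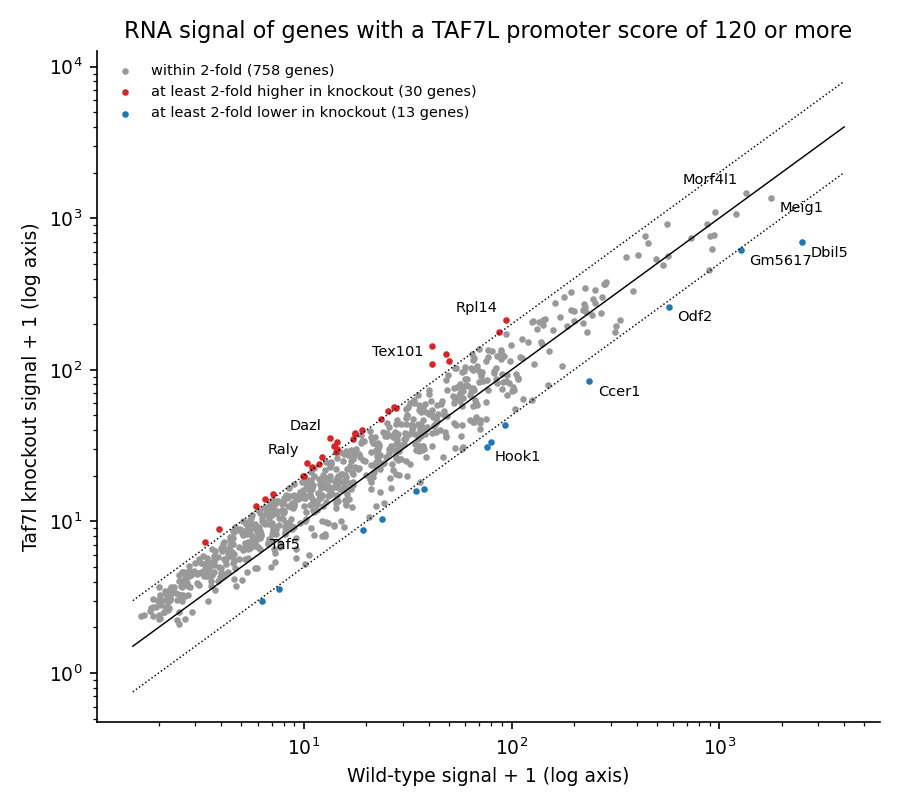
RNA signal of the 801 member genes with a mean of at least 1 in the wild-type (horizontal) and knockout (vertical) library, each plus 1 on log axes; the solid line marks equal signals, dotted lines 2-fold. The 30 red and 13 blue genes are those past 2-fold, and Dbil5 lies farthest below the line.

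The decreases among the members included several genes of spermatids. Dbil5 had a signal of 2513 (SD 54.8) in wild type and 692 (SD 36.1) in the knockout, a log2 change of -1.86. Ccer1, a germ-cell gene of chromatin packaging that the table lists as 4921510H08Rik, had 236 (SD 8.37) and 83.2 (SD 4.46), a change of -1.49. Hook1, needed for the microtubule manchette that shapes the sperm head, had 75.01 (SD 2.95) and 30.1 (SD 2.01), a change of -1.29. In each of these 3 the decrease exceeded the authors' SDs, which are not replicate error. Their TAF7L scores were 150, 246 and 171.

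The next largest decreases included ubiquitin genes. The ubiquitin ligase gene Rnf139 had 78.5 (SD 3.44) and 32.3 (SD 2.32), and the ubiquitin-conjugating enzyme gene Ube2k had 36.8 (SD 1.68) and 15.4 (SD 1.35). Other members at least 2-fold lower were Rfx1, Odf2, Itsn1, Zfand4, 4930583K01Rik, Gstcd and Gm5617, chosen after their values were seen. All 13 were also at least 2-fold lower after rescaling, since rescaling lowers every knockout signal.

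The promoter of Dbil5 is shown because it had the largest decrease. Its 120 bases before the start hold 3 GC boxes (capitals, GGGCGG or CCGCCC), no TATAAA and no AAGATGGCG. Below it stands Dazl, the member with the largest increase by the naming rule, where capitals mark CCAAT read on the opposite strand.

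Dbil5, chr11:76217493-76217612 (GRCm38.p6), plus strand: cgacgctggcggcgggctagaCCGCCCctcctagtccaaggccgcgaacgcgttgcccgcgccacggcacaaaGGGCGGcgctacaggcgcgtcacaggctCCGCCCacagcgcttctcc
Dazl, chr17:50293621-50293740 (GRCm38.p6), minus strand: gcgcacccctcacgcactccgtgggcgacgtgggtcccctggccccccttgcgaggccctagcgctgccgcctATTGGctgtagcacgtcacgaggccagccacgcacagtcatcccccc

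By the naming rule, the largest increases were smaller than the decreases of Dbil5 and Ccer1, but not smaller than that of Hook1. Dazl, which encodes an RNA-binding regulator of germ cell development, had a signal of 12.3 (SD 1.55) in wild type and 34.5 (SD 2.69) in the knockout, a log2 change of 1.41. Tex101, a surface glycoprotein gene of germ cells, had 40.3 (SD 2.95) and 108 (SD 5.94), a change of 1.40, at a TAF7L score of 120, on the threshold itself. Raly, an RNA-binding protein gene, had 9.39 (SD 0.841) and 23.4 (SD 1.21), a change of 1.23. Mcm4, a subunit of the replicative helicase, had 2.88 (SD 0.516) and 7.93 (SD 0.970). Sf3b3, a core splicing factor gene, had 47.1 and 126 in a short transcript whose SDs were 30.7 and 56.5. After rescaling, none of these 5 genes was at least 2-fold higher: the 1 member that was, Mir3091, had an SD above its mean (143, SD 387, in the knockout) and is named for that reason.

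Gene lists were used to describe what kinds of genes the members are. Of 1061 listed genes in the tables, 80 were members (7.54%), and the share of all genes was 3.75%, or 6.46% of the genes compared. Among the 26 lists, TFIID stood highest. Of 19 genes of TFIID subunits and their paralogues, 6 were members (31.6%), 10 had a weaker score and 3 had none, and none of the 6 was past 2-fold. Of all 19, 0 were at least 2-fold higher and 1 was lower. Past 2-fold were 14.7% of all genes compared and 5.37% of all members. At these shares so few genes can hold none, here and in the lists below.

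Besides Taf5, the TFIID members were Taf6 (275), Taf4 (206), Taf3 (178), Taf2 (136) and Taf13 (120). Taf2, which contacts the initiator, had the largest change, with RNA signals of 9.23 (SD 0.800) and 17.8 (SD 1.23). Taf6, a histone-fold subunit, had 35.7 and 42.5. Among the other general transcription factors 3 of 18 were members, and Gtf2b, which encodes TFIIB, had the highest score, 220, with signals of 52.6 and 62.2. Gtf2h3, a subunit of TFIIH, was at least 2-fold higher, with 5.51 (SD 0.735) and 13.0 (SD 1.49), and Gtf2e1 had 9.88 and 20.0. Polr2a, the catalytic subunit of Pol II, was the only member of 13 Pol II genes, with scores of 175 for TAF7L and 2490 for Pol II. Mediator had 3 of 33 genes, with Med1 at 141.

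Genes of protein synthesis and of the mitochondrion also had shares above that of all genes. Of 80 cytosolic ribosomal protein genes 12 were members (15.0%), with Rps20 highest at 231. Only Rpl14 of the 12 was past 2-fold, with 93.1 (SD 6.13) and 211 (SD 10.7), and reads of ribosomal protein genes can be shared with near-identical pseudogenes. Of 78 mitochondrial ribosomal protein genes 11 were members (14.1%), with Mrps7 at 676 and Mrps27 at 335. Mrps7 alone of these 11 was past 2-fold, with 12.9 (SD 1.72) and 30.4 (SD 3.31). Of 46 nuclear genes of respiratory complex I and its assembly 7 were members (15.2%), with Ndufa2 at 355 and Ndufa6 at 263, and none of the 7 was past 2-fold. Over the whole lists, 8 of 79 cytosolic and 5 of 78 mitochondrial ribosomal protein genes compared were at least 2-fold higher. So were 4 of 46 complex I genes, and no gene of these lists was at least 2-fold lower.

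Splicing factors had 8 of 60 genes as members (13.3%), with Srsf7 at 361. All 8 had a positive change, and Sf3b3 alone was past 2-fold. Over all genes compared, 72.4% had a positive change as deposited. The median change of the whole splicing list was 0.60. Of its 59 genes compared, 9 rose by 2-fold or more and 0 fell that far. The positive direction is therefore not shown to be particular to the members. The COP9 signalosome had Cops6 of 9 genes, and the proteasome had Psmd8 of 39 (2.56%), with signals of 111.8 and 118.6. Genes named Zfp, which encode zinc-finger proteins, had 6 of 374 (1.60%), led by Zfp335 at 147, and Zfp451 had the largest change, from 57.5 to 29.9. Of 32 genes of double-strand break repair and the Fanconi pathway, Mdc1 (196), Atr (126) and Brca2 (124) were members. Mdc1, a mediator of the DNA damage response, had 17.8 and 36.2 in its highest transcript, which carried no TAF7L promoter score, and 15.2 and 31.4 in its strongest member transcript. Of 19 reference genes 4 were members, with Eef2 at 271.

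Among germ-cell lists, the piRNA pathway had the highest share. Of 20 piRNA pathway genes, which keep transposons silent in germ cells, 5 were members (25%) and 14 had a weaker score: Rnf17 (224), Mael (153), Tdrd12 (144), Tdrd5 (127) and Ddx4 (122). None of the 5 was past 2-fold, and Mael, the most abundant, had signals of 497 and 536. Of all 19 piRNA pathway genes compared, 3 were at least 2-fold higher and 0 lower. Of 32 meiotic prophase genes 3 were members: Sycp2 (261) and Sycp3 (215), which form the axis of the synaptonemal complex, and Meiob (150), which binds single-stranded DNA. Sycp3 had signals of 24.2 and 43.4, within 2-fold.

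Lists of sperm structure and function held at most 3 members each. The share over all genes was 3.75%, or 6.46% of the genes compared, and at that share lists this short can hold none. The list of sperm chromatin packaging, with the protamines, had none of 16, and 12 of these 16 had no TAF7L promoter score, while 11 were at least 2-fold lower. Germ-cell energy metabolism had none of 19, and intraflagellar transport none of 14, though 13 of those 14 had a weaker score. Sperm tail genes had 3 of 32 (9.38%): Meig1 (142), Spag16 (139) and Odf2 (135). Odf2, an outer dense fibre gene, had 570 (SD 6.56) and 259 (SD 6.71) in a transcript with a score of 104, and 558 and 248 in its strongest member transcript. Acrosome genes had 3 of 28 (10.7%), Pick1 (181), Spesp1 (154) and Tex101 (120), and Pick1 had 20.8 and 20.3. Postmeiotic regulators had 2 of 20: Atf4 (351), with 16.8 and 27.3, and Sox30 (160), with 74.3 and 46.6.

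Lists of other cell types held no member, which lists this short can also do at the share over all genes, 3.75%. This was so for 19 Sertoli, 12 Leydig, 14 macrophage and leukocyte, 10 peritubular and 12 epididymal genes. A weaker TAF7L promoter score was present for 1 Sertoli and 1 Leydig gene, and for none in the other 3 lists.

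**Figure D5:**
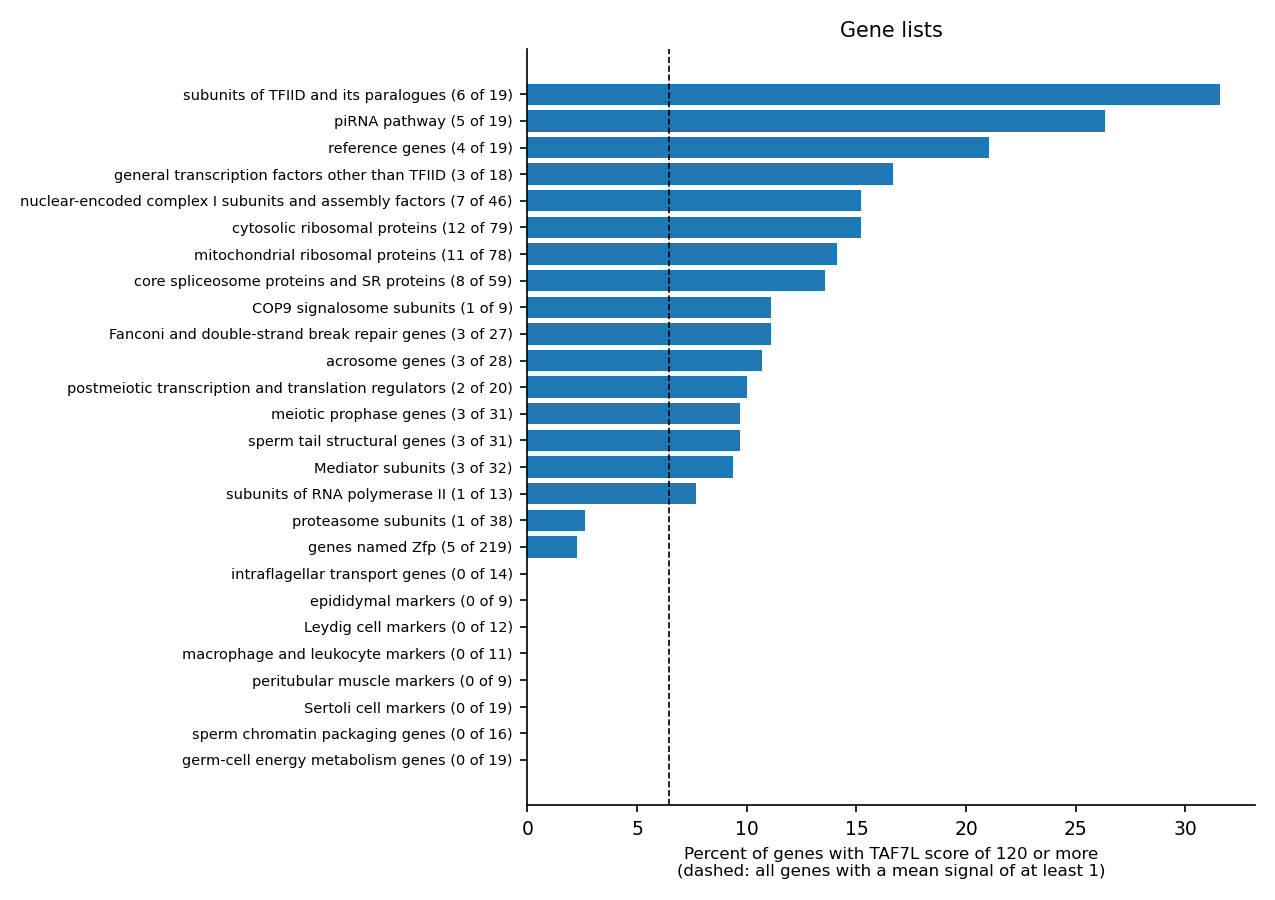
Percent of the genes of each list, among those with a mean signal of at least 1, that had a TAF7L promoter score of 120 or more (horizontal axis), with counts in brackets; the dashed line marks 6.46%, the share over all genes compared. TFIID genes stand highest at 31.6%, and sperm chromatin, intraflagellar transport and somatic lists hold none.

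The X chromosome was nearly without members. Of 498 X-linked genes compared, 1 was a member (0.201%), against 800 of 11884 autosomal genes (6.73%). Across the autosomes the share ran from 4.27% on chromosome 7 to 8.76% on chromosome 16. The X-linked member was Mid1, listed as Fxy, a ubiquitin ligase gene that spans the pseudoautosomal boundary in mice, with a TAF7L score of 137, a Pol II score of 93.4 and signals of 1.89 and 1.51. None of the 7 Y-linked genes compared was a member. The lack on the X chromosome was not particular to strong scores. A weaker TAF7L promoter score was present for 21 of the 498 X-linked genes, against 5992 of the 11884 autosomal genes.

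Many strong promoters served a pair of genes. Of the 687 member genes whose strand and start are in the RefSeq table, 180 had another gene starting within 1000 bp on the opposite strand, 26.2% (23.1 to 29.6). The share was 23.1% of weaker-score genes, 8.59% of Pol II-only genes and 1.64% of genes with neither score. Both partners were members in 80 such pairs, and in 72 of these both had the same pair of scores, so that 1 TAF7L signal counts for 2 genes.

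Partners often differed in RNA. Over the 79 pairs with both genes compared, the median fold between partners in wild type was 3.54, and 19 pairs were at least 10-fold apart. Gm5617 and Rbm7, which shared a TAF7L score of 191, had wild-type signals of 1272 and 6.29. Cnpy4 and Taf6, which shared 275, had 2.35 and 35.7, and Glyr1 and Ubn1, which shared 207, had 125 and 5.31. In 28 of the 79 pairs the partners changed in opposite directions in the knockout library, and in 9 pairs 1 partner was past 2-fold. In no pair were both. Mrps7, for example, had 12.9 and 30.4, while Gga3 had 27.4 and 24.5 in a short transcript that is no member and 2.33 and 2.29 in its strongest member transcript. Where genes overlap, reads of both cannot be told apart because strand is not stated. Of all 801 members compared, 79.5% had a positive change and 5.37% were past 2-fold. Pairs of unrelated members were not drawn for comparison. The counts and folds of the pairs are therefore not shown to be particular to partners.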

How the data were processed

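Per the submitters' processing notes, Bowtie was used for ChIP, Bowtie, TopHat and Cufflinks for RNA, with the build mm9. Tool versions, peak calling and how IgG was used were not given in the sources used here. Binding values are scores that the authors deposited for each transcript, by distance class (promoter, proximal or distal). The deposited RNA values are a mean and SD of a signal per transcript, per the file headers, with no unit named. The authors' log2 ratio and ratio of SD to mean, also deposited, were not used. The 3 ChIP libraries carry a wild-type label and were taken as such, although a protocol text they share also mentions knockout chromatin.

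Transcripts were joined by identifier. Names were matched to RefSeq symbols or older symbols (221 member transcripts) on the same chromosome. A gene took the transcript with the highest mean and the highest score of its transcripts. Change was log2((knockout + 1)/(wild type + 1)) for genes whose mean signal reached 1, and 2-fold was the call. With 1 library per condition no test across samples was made. Shares have 95% Wilson intervals. Promoter windows came from RefSeq GRCm38.p6: 84.6% of member genes had one, and 69.8% had exactly 1 start. A match in any window of a gene counted, and positions and printed sites came from genes with 1 start.

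The members and the 26 gene lists were chosen with earlier results of these data known. Genes were named by a rule: the 12 highest TAF7L scores; the 6 largest increases and decreases with a mean of at least 5 and an SD below the mean; the 6 highest wild-type signals; the 3 highest and lowest Pol II scores; values next to the threshold; and in each list the highest score and the largest change. Some genes that the rule takes were left out. Other genes named, such as the further list members, head-to-head pairs and further genes past 2-fold, were chosen after their values were seen. Calculations used Python 3.11, pandas 2.3.3 and scipy 1.17.1, and the scripts were tested on simulated data.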

Additional observations from a re-analysis of the deposited data

How the results depend on the processing

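No paired analysis was possible because each condition had 1 library, and for the same reason no library could be left out. As deposited, 3.75% of members were at least 2-fold higher, 1.62% at least 2-fold lower and the median change was 0.38. A score threshold of 200 gave 5.60% higher and 0.800% lower. A pseudocount of 0.1 gave 7.87% higher (16.4% of all genes) and a median of 0.43. Rescaling gave 0.125% higher, 6.37% lower and a median of -0.047. Wild-type bins, chosen after seeing the data, gave 1.58%, 6.34% and 0% higher at 1 to 5, 5 to 20 and 100 or more, and 0% and 5.26% lower at 1 to 5 and 100 or more. Over all genes of the same bins the shares were 6.97%, 9.02% and 2.06% higher, and 1.41% and 28.7% lower. The members' medians were 0.51, 0.47, 0.22 and 0.083 from the lowest bin to the highest. Bands of the Pol II score (4 of equal size), also chosen after seeing the data, gave 0% higher and 0% lower with a median of 0.31 in the second band (28 members), and 6.34%, 0.704% and 0.45 in the third. Over all genes, 7.54% were higher and 5.90% lower in the second band, and 6.46% and 2.95% in the third.

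The median Pol II score of 840 was 758, 936 and 909 at thresholds of 100, 150 and 200, and 809 with each score pair counted once. The median wild-type signal of 13.5 was 7.62 over transcripts. The share of member genes with a wild-type signal of at least 1, 97.4%, was 99.2% at a threshold of 200, 90.6% over transcripts and 74.0% at a signal of at least 5. The share with AAGATGGCG, 15.3%, was 19.4% and 26.5% at thresholds of 150 and 200, and 23.6% in the third Pol II band. The share of listed genes that were members, 7.54%, was 13.9%, 3.77% and 1.89% at thresholds of 100, 150 and 200, since fewer genes pass a higher threshold. For the other changes the cause was not tested. Without replicates, a 2-fold difference cannot be set against the spread between animals.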

Other observations

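Among the 131 member transcripts without a placed gene, 113 carried no gene name and 18 the name of a gene on another chromosome. They are outside every count of genes. The highest of them after Mir715 were 2 transcripts at the start of Pcif1 with its scores, 531 for TAF7L and 1290 for Pol II. A transcript on chromosome 9 (8076632 to 8134294, mm9) had 504 and 923, with RNA signals of 38.3 (SD 2.12) in wild type and 40.5 (SD 2.63) in the knockout. Another on that chromosome (75257990 to 75265516) had 469 and 1140, with 19.37 and 17.99. All 4 were within 2-fold on the scale with 1 added. Their scores stand in the counts and medians over transcripts above.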
